A study of Homo sapiens with 15 samples.

Results

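The 10 matrix metalloproteinase genes listed here were examined in the histone marks H3K4me3 and H3K27ac of a breast cancer cell line and its metastatic sub-populations. The genes were MMP1, MMP2, MMP3, MMP7, MMP8, MMP9, MMP10, MMP12, MMP13 and MMP14, of which 7 lie in a cluster at 11q22 and 3 lie elsewhere. Members were the H3K4me3 peaks within 2 kb of an annotated transcription start of a listed gene, and the H3K27ac peaks within 100 kb whose nearest protein-coding start belonged to a listed gene. This gave 2 of 22572 H3K4me3 consensus peaks and 23 of 62195 H3K27ac consensus peaks.

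MDA-MB-231 is an established human breast cancer line, classed as triple-negative. Its parental population (Par) was compared with LM2, a lung metastatic sub-population, and BrM2, a brain metastatic sub-population, both derived from it by selection in vivo. The labels name no engineered allele and no treatment. All were kept for 3 days in DMEM with 10% serum, then fixed with 1% formaldehyde for ChIP-seq. Each line had 2 replicates per mark, so 12 libraries entered the analysis. The sub-populations are selected cell populations of a single tumor line, so differences between lines are differences between these populations. Total counts in peaks ranged from 3489607 to 9839629 for H3K4me3 and from 1994996 to 6450028 for H3K27ac. The 6 genes fixed as markers of the labelled cell type (VIM, CD44, EGFR, KRT8, KRT18 and AXL) each had an H3K4me3 peak, with a highest mean of 81.3 to 251 CPM. The 7 luminal or hormone receptor genes on a fixed list (ESR1, PGR, ERBB2, CDH1, EPCAM, FOXA1 and GATA3) had H3K4me3 peaks too, from 5.32 CPM at CDH1 and 22.7 CPM at ESR1 to 86.2 CPM at ERBB2. Of 8 markers of other cell types, PTPRC, CD3E, CDH5 and ALB had no H3K4me3 peak, and PECAM1 was not found in the annotation as protein-coding. CD68, GFAP and SFTPC had H3K4me3 peaks of 3.31, 5.80 and 0.791 CPM. By the distance rule, H3K27ac peaks were assigned to PTPRC (8), CDH5 (4), GFAP (3), CD3E (1) and CD68 (1), and none to ALB or SFTPC. Values are in CPM, the reads of a library in a peak after its reads in all consensus peaks of the mark were scaled to a sum of 1000000. In these bulk populations, more cells carrying a mark and more of the mark per cell cannot be told apart.

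Matrix metalloproteinases are zinc-dependent endopeptidases that cut components of the extracellular matrix. They are made as inactive proenzymes, become active when the propeptide is removed and are held in check by tissue inhibitors (TIMPs). MMP1, MMP8 and MMP13 are collagenases, MMP3 and MMP10 are stromelysins, MMP7 is matrilysin and MMP12 is the macrophage elastase. MMP2 and MMP9 are gelatinases, and MMP14 is a membrane-anchored protease that activates proMMP2. H3K4me3 marks active promoters, and H3K27ac marks active promoters and enhancers.

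The promoters of the listed genes differ in sequence. RefSeq promoter windows (GRCh38.p14, 250 bases before to 50 after the start) were at hand for 4 of the 10 genes, MMP7, MMP8, MMP10 and MMP14, and none was used for MMP1, MMP2, MMP3, MMP9, MMP12 or MMP13. Each window was searched for AP-1 (TGAGTCA), the ETS core (AGGAAG) and the GC box (GGGCGG) on both strands and for the TATA box (TATAAA) on the gene's strand. These motifs occurred in 4.95%, 33.7%, 44.9% and 7.33% of 35093 RefSeq windows. MMP14, the only gene of the 4 with an H3K4me3 peak over its start, is shown beside MMP7, a cluster gene without one. The MMP14 window (chr14:22836335-22836634, plus strand) is 55% G and C and holds a GC box (capitals) 66 bases before the start.
MMP14: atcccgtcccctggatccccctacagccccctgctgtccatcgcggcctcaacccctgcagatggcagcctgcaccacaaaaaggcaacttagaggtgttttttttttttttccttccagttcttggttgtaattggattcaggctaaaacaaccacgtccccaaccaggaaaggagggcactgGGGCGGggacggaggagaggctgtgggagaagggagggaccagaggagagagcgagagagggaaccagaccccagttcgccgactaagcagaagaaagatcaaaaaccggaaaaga
The MMP7 window (chr11:102530698-102530997, minus strand) is 35.7% G and C. Its capitals mark 2 ETS cores on the opposite strand, then an AP-1 match 67 bases and a TATA box 30 bases before the start.
MMP7: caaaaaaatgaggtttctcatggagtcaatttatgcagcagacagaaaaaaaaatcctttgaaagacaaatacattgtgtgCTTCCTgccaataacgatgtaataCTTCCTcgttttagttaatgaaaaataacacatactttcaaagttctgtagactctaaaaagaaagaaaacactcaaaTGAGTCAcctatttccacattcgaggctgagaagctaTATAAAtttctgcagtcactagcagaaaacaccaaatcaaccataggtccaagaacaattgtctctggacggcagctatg
A TATA box also stood 31 bases before the MMP10 start and 110 bases before the MMP8 start, and those windows were 36.3% and 40.7% G and C. The median over all windows was 58.7%.

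Only MMP2 and MMP14 had an H3K4me3 peak near a start, and the other 8 genes, among them all 7 cluster genes, had none. MMP14 carried the mark in all 3 lines. MMP2 carried it in LM2 and had few reads in Par and BrM2. The MMP14 peak (hg19, chr14:23305339-23309050) spans the start of the gene and averaged 134 CPM over the 6 libraries. Per kb of peak it stood at the 85.4th percentile of all H3K4me3 peaks. It held 134 and 160 CPM in Par, 115 and 115 CPM in LM2, and 138 and 142 CPM in BrM2. Both LM2 libraries were the lowest, and the BrM2 and Par values overlapped. The log2 fold change was -0.31 ± 0.31 (SE, n = 2 per line) in LM2 against Par (DESeq2 adjusted p = 1) and -0.13 ± 0.31 in BrM2 against Par (DESeq2 adjusted p = 1). With the replicate number as a block, the LM2 difference passed the test at -0.33 on the log2 scale (DESeq2 adjusted p = 0.041), in a fit that called 14.4% of all peaks tested.

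The MMP2 peak (chr16:55513006-55514450, plus strand gene) spans the canonical start of the gene. It held 0 and 1.04 CPM in Par, 16.1 and 21.04 CPM in LM2, and 0.218 and 1.98 CPM in BrM2. Par had 0 and 7 reads there, LM2 had 70 and 207 reads and BrM2 had 1 and 16 reads. Both LM2 libraries lay far above the other 4, which overlapped. H3K4me3 at MMP2 rose 31.2-fold in LM2 against Par, a log2 fold change of 4.96 ± 0.83 (SE, n = 2 per line, DESeq2 adjusted p = 1.01e-06). Of 2 H3K4me3 members, this was the 1 called in LM2, against 2.51% of all peaks tested. With gene-level starts this peak was no member, and 0 of the 1 member left was called. The change ranked 66th by size among 411 peaks that rose in LM2. In BrM2 the log2 fold change against Par was 0.88 ± 0.91 (DESeq2 adjusted p = 0.96), so 0 of 2 members were called (3.61% of all peaks tested), with 0 at an unadjusted p under 0.05 and 0 by edgeR. The direct comparison of the sub-populations gave -4.08 ± 0.70 in BrM2 against LM2 (DESeq2 adjusted p = 1.13e-06), again 1 of 2 members against 3.18% of all peaks. Without LM2 replicate 1 or 2 the LM2 change stayed at 5.22 or 5.17, but its standard error rose to 2.33 or 2.34 and the call was lost (DESeq2 adjusted p = 0.71 and 0.53). The BrM2 against LM2 call was lost in the same fits. Without Par replicate 2, which leaves Par at 0 reads, the fitted LM2 change was 8.33 (DESeq2 adjusted p = 0.027), and without BrM2 replicate 2 the BrM2 against LM2 change was -6.34 (DESeq2 adjusted p = 0.012).

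**Figure D1:**
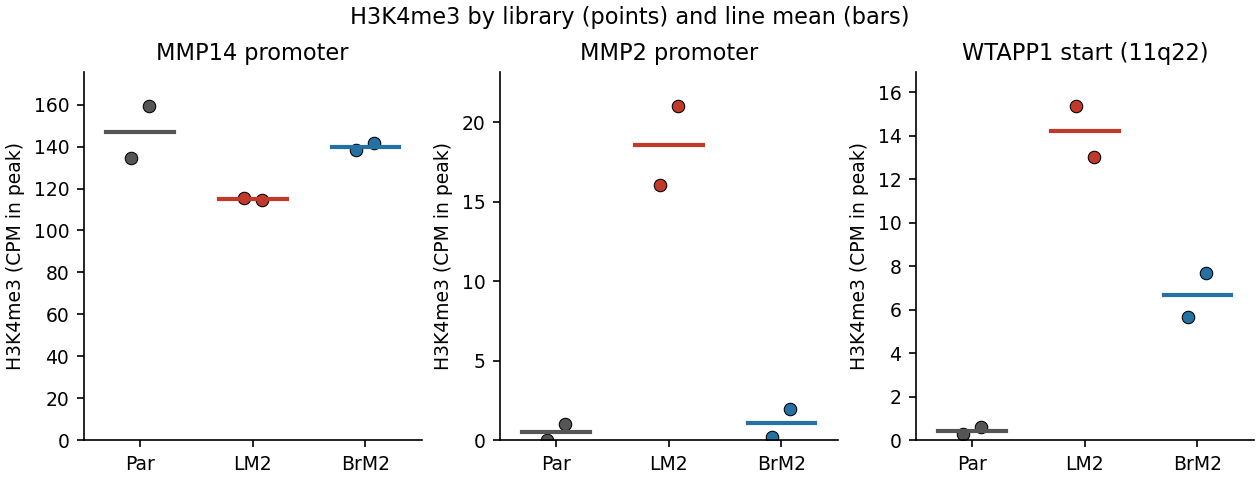
H3K4me3 in CPM at the promoters of MMP14 and MMP2 and at the start of WTAPP1, a pseudogene in the 11q22 cluster. Points are the 2 libraries of each line and bars are their means. MMP14 lay between 115 and 160 CPM in all libraries, MMP2 was at 16.1 and 21.04 CPM in LM2 and at most 1.98 CPM elsewhere, and the WTAPP1 start was at 0.287 and 0.596 CPM in Par and at 5.67 CPM or more in LM2 and BrM2.

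At H3K27ac, MMP2 had 2 peaks and no contrast of either passed the test by DESeq2. The peak over the start (chr16:55512931-55514170) held 2.28 and 4.18 CPM in Par, 7.60 and 4.25 CPM in LM2, and 2.29 and 3.51 CPM in BrM2. Its log2 fold change was 0.83 ± 0.68 in LM2 (DESeq2 adjusted p = 0.76) and -0.19 ± 0.75 in BrM2 (DESeq2 adjusted p = 0.96). The upstream peak (chr16:55502810-55506832), 5.91 kb before the nearest start in an intron of the annotated MMP2 gene, held 13.0 and 20.9 CPM in Par, 23.6 and 23.7 CPM in LM2, and 11.5 and 11.5 CPM in BrM2. Both BrM2 libraries were below all others. BrM2 against LM2 was -0.97 ± 0.41 (unadjusted p = 0.017, DESeq2 adjusted p = 0.22). It passed only in edgeR with the replicate block (adjusted p = 0.0135), which called 12.5% of all peaks.

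MMP14 also carried broad H3K27ac peaks in all 3 lines. A peak over its start (chr14:23304365-23311162) held 70.7 and 75.4 CPM in Par, 45.6 and 66.2 CPM in LM2, and 78.0 and 67.2 CPM in BrM2. A second peak (chr14:23313890-23323082) runs from the 3′ part of the gene to well beyond its end at position 23318250. It held 65.2 and 76.7 CPM in Par, 68.8 and 89.1 CPM in LM2, and 95.1 and 103 CPM in BrM2. In this second peak both BrM2 libraries were the highest. Its log2 fold change in BrM2 was 0.48 ± 0.28 (DESeq2 adjusted p = 0.42), and no contrast of either peak passed the test by DESeq2. It passed only in edgeR with the replicate block (adjusted p = 0.033), which called 15.9% of all peaks. The peaks stood at the 88.7th and 86.1st percentiles of H3K27ac per kb.

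MMP9 had 2 small H3K27ac peaks and no H3K4me3 peak within 2 kb of its start. The upstream one (chr20:44621737-44622184, 15.4 kb before the start) held 2.28 and 4.18 CPM in Par, 4.65 and 4.79 CPM in LM2, and 4.59 and 4.51 CPM in BrM2. The log2 fold changes were 0.49 ± 0.66 in LM2 (DESeq2 adjusted p = 0.91) and 0.51 ± 0.69 in BrM2 (DESeq2 adjusted p = 0.84). The other (chr20:44642677-44643104), over an exon of MMP9 and 5.13 kb after the start, lay between 0.783 and 2.66 CPM in all libraries. It had no adjusted p.

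At 11q22, H3K27ac was found near 6 of the 7 genes and at 17 peaks, with none assigned to MMP1. At the 7 peaks of MMP8, MMP10, MMP3 and MMP12, all LM2 and BrM2 libraries were above both Par libraries in CPM. At the MMP7 peaks 20.6 and 29.4 kb upstream, all were below both Par libraries. Most of these differences did not pass the test. The peaks set out here were picked after their values were seen, and the MMP13 peaks went both ways. Over all H3K27ac peaks, both LM2 libraries were above both Par libraries at 21.7% and below them at 21.6%, by normalized counts. For BrM2 these shares were 25.0% and 25.4%. The share with both sub-populations on the same side was not computed. In LM2 against Par, 2 of 23 members were called, against 3.63% of all peaks tested. Both were higher, as were 2.72% of all peaks tested. They were an MMP8 and an MMP3 peak. By edgeR 4 were called, all higher, against 5.14% of all peaks. An unadjusted DESeq2 p under 0.05 was reached by 6 of the 23 members, beside 6800 of all 62195 peaks. In BrM2 against Par, 0 of 23 members were called by DESeq2 (5.29% of all peaks tested). At an unadjusted DESeq2 p under 0.05 there were 5, beside 8512 of all 62195 peaks. By edgeR 3 were called (6.88% of all peaks), and with the replicate block in DESeq2 also 3 (8.13% of all peaks tested), in each case 1 higher and 2 lower. In BrM2 against LM2, 0 of 23 were called by DESeq2 (2.94% of all peaks), with 1 at an unadjusted p under 0.05 (6706 of all 62195 peaks). There were 0 calls by edgeR and 2 by edgeR with the replicate block (12.5% of all peaks). Independent filtering left 6, 5 and 6 members without an adjusted p in these contrasts.

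**Figure D2:**
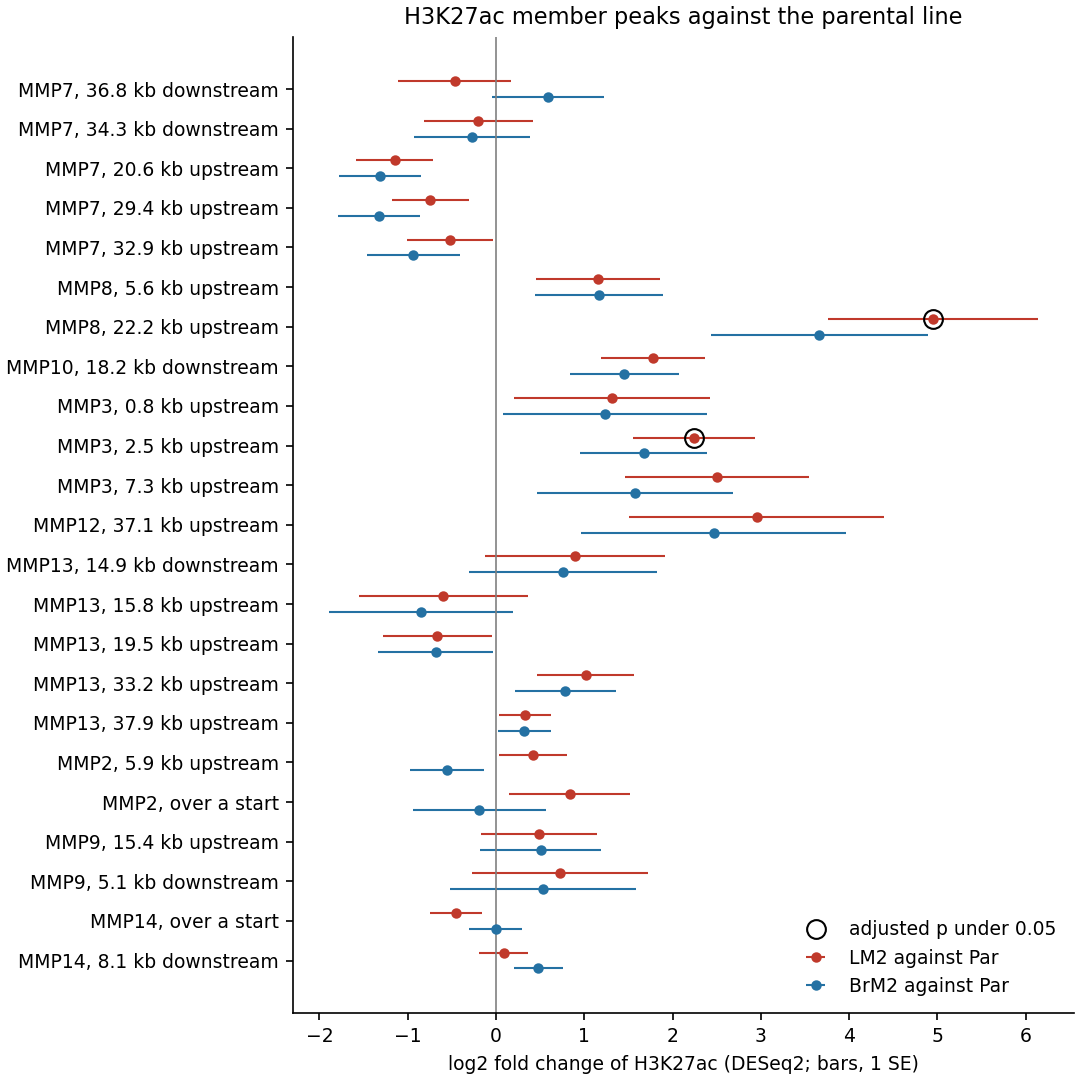
Log2 fold change of H3K27ac against Par for the 23 member peaks, in LM2 (red) and BrM2 (blue). Bars are 1 standard error and rings mark an adjusted p under 0.05. Labels give the distance from the nearest start of the gene. The ringed peaks of MMP8 and MMP3 were at 4.95 and 2.24 in LM2, and the MMP7 peaks 20.6 to 32.9 kb upstream lay below 0 in both lines.

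The largest change among the cluster members was at a site between MMP8 and MMP10. The H3K27ac peak (chr11:102617906-102618581) lies 22.2 kb upstream of the nearest MMP8 start, and MMP8 encodes the neutrophil collagenase. It held 0 and 0.522 CPM in Par, 8.99 and 6.91 CPM in LM2, and 2.80 and 3.51 CPM in BrM2. In read counts this was 0 and 2, 58 and 26, and 11 and 7. The 3 lines did not overlap, with LM2 the highest and Par the lowest. The fitted log2 fold change was 4.95 ± 1.19 in LM2 (n = 2 per line, DESeq2 adjusted p = 0.0026), ranking 25th of 1332 peaks that rose. Par held 2 reads in all, and without Par replicate 2 the fitted change was 7.51 (DESeq2 adjusted p = 0.045). The ratio of pooled CPM was 33.8 for LM2 to Par (95% counting interval 9.07 to 284) and 12.5 for BrM2 to Par (2.99 to 111). These intervals cover counting error only. In BrM2 the fitted change was 3.66 ± 1.23 (DESeq2 adjusted p = 0.053), and it passed with the replicate block (3.69, DESeq2 adjusted p = 0.041).

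The same site carried H3K4me3 and the annotated start of another transcript. An H3K4me3 peak (chr11:102617609-102618380) shared 475 bp with it and spanned the start of WTAPP1 at position 102617699. WTAPP1 is annotated as a transcribed processed pseudogene on the plus strand. It runs from the MMP8 side of the cluster across MMP10 and MMP1 to the end of MMP3, opposite in direction to all 7 cluster MMP genes. The H3K27ac peak begins 207 bp downstream of this start. This H3K4me3 peak is not a member, since WTAPP1 is not a protein-coding gene, and it was singled out after its values were seen. It held 0.287 and 0.596 CPM in Par, 15.4 and 13.0 CPM in LM2, and 5.67 and 7.68 CPM in BrM2. The lines were ordered as for H3K27ac, with no overlap. H3K4me3 there rose by 4.98 ± 0.83 on the log2 scale in LM2 (31.6-fold, DESeq2 adjusted p = 1.01e-06) and by 3.78 ± 0.84 in BrM2 (13.7-fold, DESeq2 adjusted p = 0.00058). BrM2 against LM2 was -1.20 ± 0.53 (DESeq2 adjusted p = 0.29), and it passed with the replicate block (-1.17, DESeq2 adjusted p = 0.042), in a fit that called 4771 of 21696 H3K4me3 peaks tested. Without Par replicate 2 the LM2 and BrM2 changes were 5.52 and 4.32 but neither passed (DESeq2 adjusted p = 0.068 and 0.21).

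Of the 23 H3K27ac members, 6 (26.1%) shared at least 1 bp with an H3K4me3 peak, against 30.9% of all H3K27ac peaks. Besides the sites at MMP2, MMP14 and WTAPP1, small H3K4me3 peaks lay under the MMP9 exon peak, with 1.15 to 4.47 CPM, and under the MMP7 peak 29.4 kb upstream, with 0.218 to 3.13 CPM.

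The second called member was an MMP3 peak. MMP3, stromelysin-1, cuts many matrix proteins and activates other MMP proenzymes. The peak (chr11:102716878-102717940) lies 2.54 kb upstream of the start, in intergenic sequence. It held 2.05 and 1.04 CPM in Par, 8.53 and 6.91 CPM in LM2, and 5.35 and 4.51 CPM in BrM2. The lines did not overlap, in the order Par, BrM2, LM2. H3K27ac rose by 2.24 ± 0.69 on the log2 scale in LM2 (4.73-fold, DESeq2 adjusted p = 0.035), and was at 1.67 ± 0.72 in BrM2 (DESeq2 adjusted p = 0.19). The LM2 call was lost without any 1 of the 6 libraries, with the log2 fold change between 1.85 and 2.82.

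A window of 300 bases at the middle of each H3K27ac peak was searched for the AP-1, ETS core and GC box letters on both strands. It runs beyond the shorter peaks, among them an MMP3 peak of 208 bp and the MMP12 peak of 232 bp. A match there may lie outside the peak. ETS core matches occurred in the windows of 10 of 23 member peaks (43.5%) and of 32.9% of all H3K27ac peaks. AP-1 was in 2 of 23 (9.67% of all peaks) and the GC box in 2 of 23 (17.6% of all peaks). Most members lie over 2 kb from a start. Among all such H3K27ac peaks the shares were 33.6% for the ETS core, 11.3% for AP-1 and 8.31% for the GC box.

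The other 2 MMP3 peaks had positive changes in both sub-populations and no call by DESeq2. The one 0.779 kb upstream (chr11:102715119-102715326) held 0.456 and 1.04 CPM in Par, 2.48 and 1.33 CPM in LM2, and 1.53 and 2.01 CPM in BrM2. The one 7.26 kb upstream held 0.684 and 0.522 CPM in Par, 2.48 and 4.79 CPM in LM2, and 2.04 and 1.504 CPM in BrM2. In both peaks every LM2 and BrM2 library was above both Par libraries. The farther peak passed in edgeR at 2.42 (adjusted p = 0.041).

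MMP10, a stromelysin related to MMP3, had 1 peak (chr11:102631562-102633180) 18.2 kb downstream of its start, beyond the 3′ end of the gene. This peak also lies within the annotated span of WTAPP1. The peak held 2.51 and 2.87 CPM in Par, 11.9 and 7.18 CPM in LM2, and 8.41 and 6.02 CPM in BrM2. The Par libraries were the lowest, and LM2 and BrM2 overlapped. The log2 fold change was 1.78 ± 0.59 in LM2 (DESeq2 adjusted p = 0.064; edgeR adjusted p = 0.017) and 1.45 ± 0.62 in BrM2 (DESeq2 adjusted p = 0.18). The MMP8 peak 5.57 kb upstream of its start (chr11:102601257-102602045) held 2.28 and 1.83 CPM in Par, 4.34 and 5.32 CPM in LM2, and 5.10 and 4.01 CPM in BrM2. Its changes of 1.16 ± 0.70 and 1.17 ± 0.73 did not pass (DESeq2 adjusted p = 0.55 and 0.47).

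The MMP12 peak (chr11:102782825-102783056) lies 37.1 kb upstream of the start of the macrophage elastase gene. It held 0 and 0.522 CPM in Par, 2.17 and 1.86 CPM in LM2, and 1.27 and 1.504 CPM in BrM2. The ratio of pooled CPM was 8.45 for LM2 to Par (95% counting interval 2.07 to 74.3) and 5.55 for BrM2 to Par (1.11 to 53.7), from 2 reads in Par. The peak had no DESeq2 adjusted p in any contrast, and in LM2 it passed only in edgeR with the replicate block, which called 13.2% of all peaks.

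MMP13, a collagenase that favors type II collagen, had 5 peaks, 4 of them upstream. The farthest and broadest (chr11:102864359-102869191, 37.9 kb upstream) held 42.2 and 32.6 CPM in Par, 50.7 and 47.6 CPM in LM2, and 47.7 and 45.6 CPM in BrM2. Its log2 fold change was 0.33 ± 0.30 in LM2 (DESeq2 adjusted p = 0.80) and 0.32 ± 0.30 in BrM2 (DESeq2 adjusted p = 0.72). The peak 33.2 kb upstream (chr11:102859693-102860622) had the largest change of the 5 in LM2, at 1.01 ± 0.55 (DESeq2 adjusted p = 0.45), and 0.78 ± 0.57 in BrM2 (DESeq2 adjusted p = 0.58). It held 3.65 and 5.22 CPM in Par, 8.37 and 10.4 CPM in LM2, and 5.61 and 10.03 CPM in BrM2, with both Par libraries the lowest. The nearest to a start (chr11:102811230-102811510, 14.9 kb downstream) lay between 0.912 and 2.64 CPM in all libraries. The peaks 15.8 and 19.5 kb upstream had negative changes in both sub-populations, between -0.85 and -0.60, and none of the 5 was called by DESeq2 in any contrast, with 0 at an unadjusted p under 0.05 and 0 by edgeR, and 1, the peak 33.2 kb upstream, by edgeR with the replicate block in LM2.

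Most MMP7 peaks had negative changes in the sub-populations, with no call in DESeq2 without the replicate block. MMP7 is a small protease without the hemopexin domain of other MMPs. The peak 20.6 kb upstream (chr11:102422122-102424966) held 18.9 and 17.5 CPM in Par, 7.29 and 10.1 CPM in LM2, and 6.37 and 8.52 CPM in BrM2. Both Par libraries were above all others. The log2 fold change was -1.15 ± 0.44 in LM2 (DESeq2 adjusted p = 0.14) and -1.32 ± 0.46 in BrM2 (DESeq2 adjusted p = 0.073). The peak 29.4 kb upstream (chr11:102430841-102433098) held 24.9 and 16.2 CPM in Par, 9.92 and 15.96 CPM in LM2, and 7.14 and 9.52 CPM in BrM2. Its changes were -0.74 ± 0.43 in LM2 (DESeq2 adjusted p = 0.51) and -1.33 ± 0.47 in BrM2 (DESeq2 adjusted p = 0.071). In BrM2 both peaks passed with the replicate block (-1.32 and -1.34, DESeq2 adjusted p = 0.044 and 0.040) and in edgeR (adjusted p = 0.033 and 0.036). All 5 MMP7 peaks had a negative change in LM2, from -1.15 to -0.20, and 4 of 5 in BrM2. Without Par replicate 1, the sign turned in LM2 for the peaks 32.9 kb upstream and 34.3 kb downstream and in BrM2 for the latter, none of which was called.

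**Figure D3:**
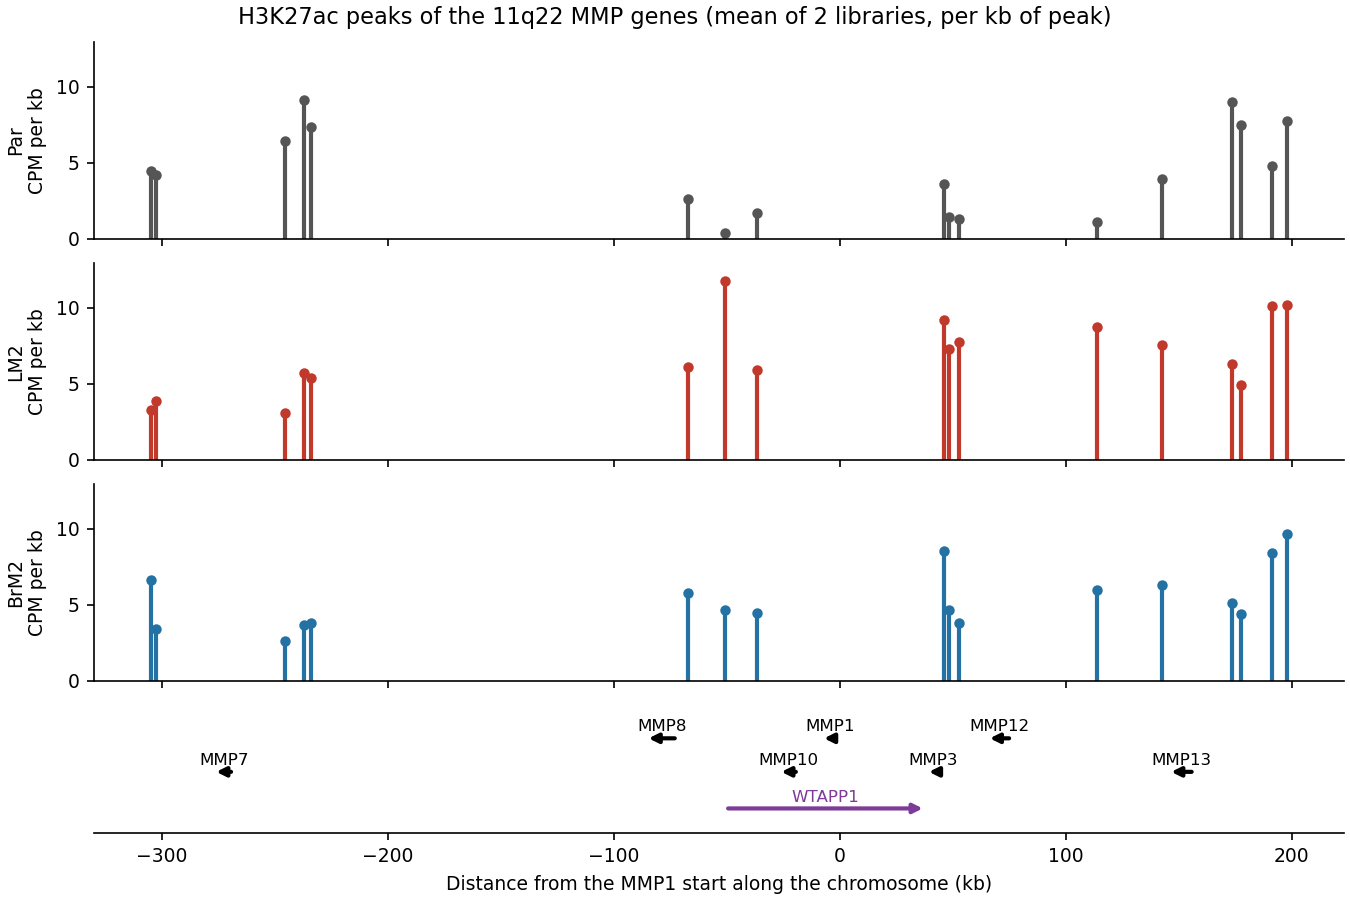
H3K27ac of the 17 member peaks at 11q22 in each line, as mean CPM per kb of peak over 2 libraries, against distance from the MMP1 start. Arrows show the genes and their direction. The site at the WTAPP1 start was at 0.386 CPM per kb in Par, 11.8 in LM2 and 4.67 in BrM2.

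Over all 17 cluster peaks, both LM2 libraries were above both Par libraries at 10 (21.7% of all H3K27ac peaks) and below them at 4 (21.6% of all peaks). In BrM2 this held for 10 (25.0% of all peaks) and 5 (25.4% of all peaks). The peaks from MMP8 to MMP13 were set apart from those of MMP7 after their values were seen, so what follows is a description. From MMP8 to MMP13, 10 of 12 peaks had a positive change in LM2, and at 10 of the 12 in LM2 and 9 in BrM2 both libraries were above both Par libraries. The median log2 fold change over the 12 peaks was 1.24 in LM2 and 1.20 in BrM2, beside -0.020 and -0.015 over all H3K27ac peaks. These medians include peaks without an adjusted p, which were 5 of the 12 in LM2 and 4 in BrM2. In LM2, 2 of the 12 were called, beside 3.63% of all peaks tested. Summed over these 12 peaks, H3K27ac was 60.3 ± 4.8 CPM in Par, 104 ± 7.3 CPM in LM2 and 86.3 ± 4.4 CPM in BrM2 (SD, n = 2). For the 5 MMP7 peaks the sums were 61.2 ± 17.6, 39.1 ± 3.4 and 33.9 ± 0.31 CPM. Over all 17 cluster peaks the sums were 122 ± 22.3, 143 ± 3.9 and 120 ± 4.1 CPM, with overlapping Par and BrM2 libraries.

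**Figure D4:**
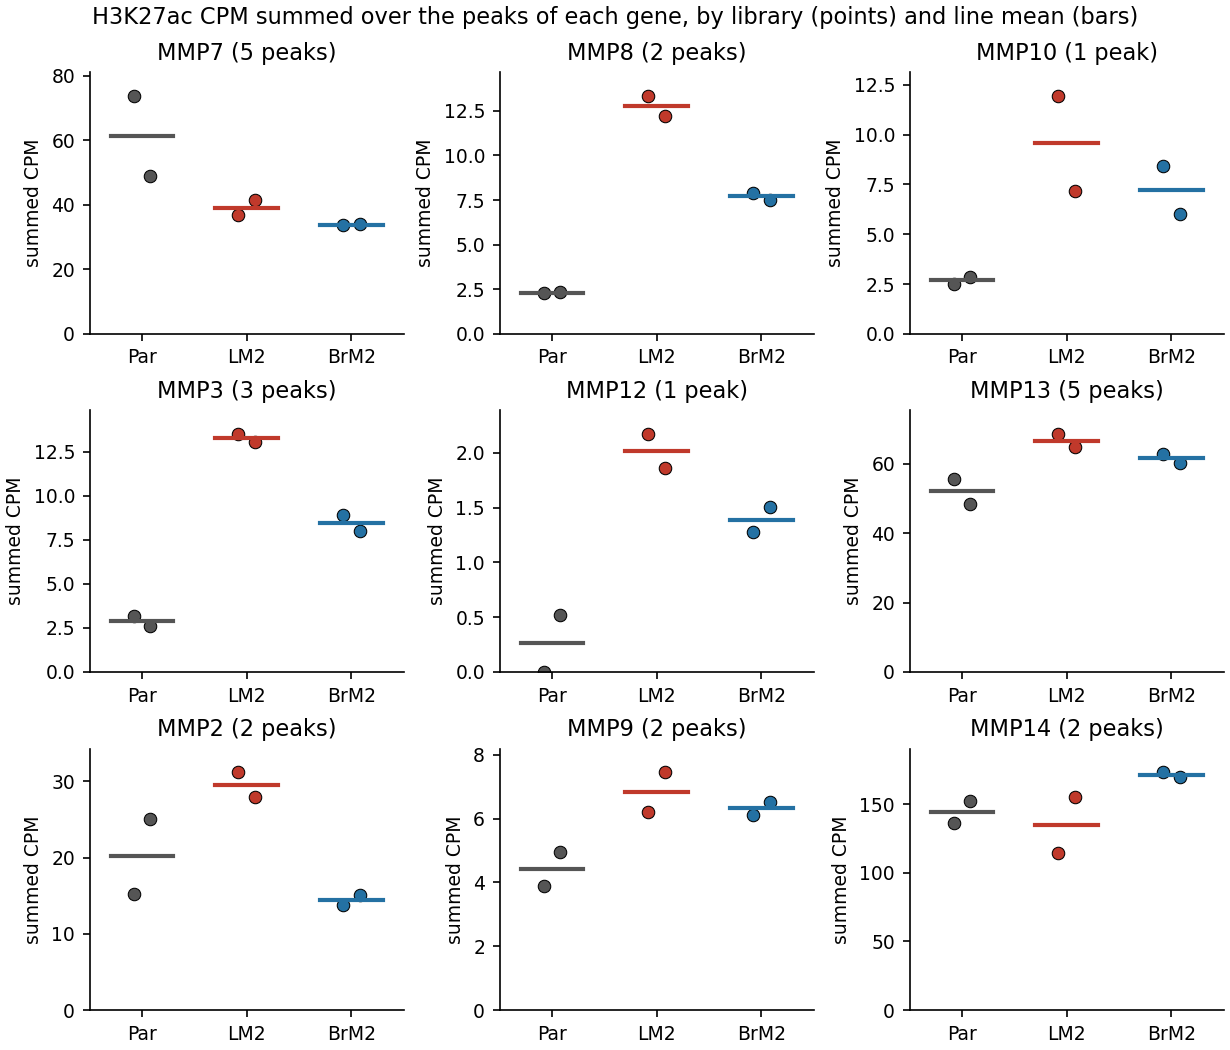
H3K27ac CPM summed over the member peaks of each gene. Points are libraries and bars are line means. MMP8, MMP10, MMP3 and MMP12 had both Par libraries below all others, at means of 2.31, 2.69, 2.90 and 0.261 CPM, as did MMP9 and MMP13, and MMP7 had both Par libraries above all others, at a mean of 61.2 CPM.

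The surroundings of the cluster were compared over 5 Mb on each side. The 177 H3K27ac peaks there that were not members had a median log2 fold change of 0.05 in LM2 and -0.11 in BrM2 over those tested. Of 135 tested in LM2, 10 were called higher and 3 lower (9.63%, beside 3.63% of all peaks tested). Of 146 tested in BrM2, 10 were called higher and 6 lower (10.96%, beside 5.29%). Inside the cluster interval (chr11:102391239-102826461) the only called H3K27ac peak that was not a member was the one nearest to MMP20, the enamel protease gene (chr11:102467951-102476483). It held 138 and 88.5 CPM in Par, 132 and 74.5 CPM in LM2, and 58.1 and 39.6 CPM in BrM2. In BrM2 it fell by 1.20 ± 0.35 on the log2 scale (DESeq2 adjusted p = 0.017).

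Other MMP genes and the genes that restrain or activate these proteases were read from fixed lists. Of 13 further MMP genes, 8 had an H3K4me3 peak. None of these 8 peaks was called by DESeq2 or edgeR in LM2 or BrM2 against Par. An unadjusted DESeq2 p under 0.05 was reached by 2 and 1 of them, beside 1830 and 2365 of all 22572 peaks. With the replicate block in DESeq2, 3 were called in each, in fits that called 14.4% and 17.7% of all peaks tested. In BrM2 against LM2, MMP16, a membrane-type MMP, was lower by DESeq2 (-1.35 ± 0.38, adjusted p = 0.018). It was the 1 called of these 8 peaks, beside 3.18% of all peaks tested. The inhibitors TIMP1, TIMP2, TIMP3, TIMP4 and RECK each had 1 H3K4me3 peak, and 0 of 5 were called by DESeq2 or edgeR in any contrast, with 0 in LM2 and 1 in BrM2 at an unadjusted p under 0.05. With the replicate block, 0 were called in LM2 and 1 in BrM2. TIMP2, which takes part in proMMP2 activation by MMP14, held 132 to 153 CPM of H3K4me3 in all 6 libraries.

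Of 29 H3K27ac peaks of the inhibitors, 23 were tested in LM2 and 1 of them rose, beside 2.72% of all peaks tested. This was a TIMP3 peak 90.9 kb from its start (chr22:33104107-33106794), with 2.51 and 4.18 CPM in Par, 12.7 and 15.2 CPM in LM2, and 2.04 and 4.01 CPM in BrM2. The change was 2.002 ± 0.57 in LM2 against Par (DESeq2 adjusted p = 0.018) and -2.22 ± 0.62 in BrM2 against LM2 (DESeq2 adjusted p = 0.017). The activators and inducers (FURIN, BSG, PLAU, PLAUR, PLAT, ST14, CTSB) had 31 H3K27ac peaks. Of 26 tested in LM2, 2 were called, both higher, beside 3.63% of all peaks tested. Of 28 tested in BrM2, 2 were called, both lower, beside 5.29%. Of 25 tested in BrM2 against LM2, 5 were called, all lower, beside 2.94%. The LM2 calls were both upstream of FURIN, the proprotein convertase that activates proMMP14. The peak 7.48 kb from its start held 2.05 and 1.04 CPM in Par, 14.6 and 8.78 CPM in LM2, and 1.02 and 3.51 CPM in BrM2 (2.84 ± 0.72 in LM2, DESeq2 adjusted p = 0.0048). Both BrM2 calls were at CTSB, which encodes cathepsin B, a protease that can activate proenzymes, with changes of -2.01 ± 0.52 and -1.41 ± 0.34 (DESeq2 adjusted p = 0.0045 and 0.0019).

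Among all other promoter peaks, those most like the strongest member peak in their pattern over the 6 libraries were sought by Pearson's r of log2(CPM + 1), as a description. For MMP14 H3K4me3 these were PSMD11, CCND3 and ACTR1A (r = 0.979, 0.978 and 0.969 among 13065 peaks). For the second MMP14 H3K27ac peak they were TPX2, DRC3 and PPP5C (r = 0.995, 0.994 and 0.994 among 15154 peaks). The points share library depth and replicate number.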

How the data were processed

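ChIP-seq libraries of 3 lines and 2 marks (2 replicates each, 12 libraries) were analysed, and 3 input samples were not used. Replicates are biological per the study's methods. The members and gene lists were chosen with earlier results of these data known.

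The authors aligned reads to hg19 with Bowtie2 2.3.4.3, marked duplicates with Picard 2.18.21, merged the libraries of a mark and called broad consensus peaks with MACS2 2.1.2. The deposited tables give each consensus peak's raw counts, for which the authors ran featureCounts 1.6.0 on reads extended by 150 bases at the 3′ end. A site marked in few libraries can be missed by calling on merged reads. All count columns matched a sample, with 0 left over.

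Starts were those of all protein-coding GENCODE 44 transcripts lifted to GRCh37. The plan had named the gene-level start, which gives 1 H3K4me3 and 19 H3K27ac members, because it was not known then that the MMP2 gene record begins far upstream of the canonical start of the gene. An H3K27ac peak was assigned by distance alone, which does not show that it acts on that gene.

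Lines were compared over all peaks of a mark with the DESeq2 1.42.0 Wald test (R 4.3.3), cell line as the only term, 6 libraries and 3 residual degrees of freedom, with Benjamini-Hochberg adjustment and a threshold of 0.05. Log2 fold changes carry the standard error from the model. Both contrasts against Par use the same Par libraries. Same-numbered libraries deviated together from their line means (r = 0.843, 0.788 and 0.825 for H3K4me3 and 0.407, 0.607 and 0.48 for H3K27ac, over peaks whose normalized counts averaged 50 or more), so a DESeq2 fit blocked on replicate number was set beside calls that it changed. The labels name no shared day or batch. Alternatives were edgeR 4.0.16 quasi-likelihood with and without the block, TMM scaling, scaling by chromosome, a mean count of at least 10, the compared lines only, each library left out, and distances of 1 and 50 kb. On simulated counts, with 200 peaks changed 4-fold between LM2 and Par, DESeq2 called 164 of them among 22572 H3K4me3 peaks and 147 among 62195 H3K27ac peaks, with 19 and 12 calls among unchanged peaks. The changed peaks were drawn only from those above a minimum mean count, which both called H3K27ac members and others did not reach. No shared deviation of same-numbered libraries was simulated. These counts therefore do not give the recovery for members with few reads.

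Named H3K27ac peaks were, for each gene, the one nearest to a start, the one with the highest mean CPM and any called. Other peaks are given by their range or were added after their values were seen. Printed sequences came from RefSeq promoter windows (GRCh38.p14), and motifs in peaks were searched in the GRCh37 genome. The sequences of the peaks are not reported here.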

Additional observations from a re-analysis of the deposited data

Results flagged for a closer look

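The H3K4me3 peak over the MMP2 start differed between the sub-populations by the direct test, with a log2 fold change of -4.08 ± 0.70 in BrM2 against LM2 (n = 2 per line). It is listed because the effects of LM2 and BrM2 against the same parental libraries differed. The libraries held 70 and 207 reads in LM2 and 1 and 16 in BrM2, and both LM2 libraries were above both BrM2 libraries.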

How the results depend on the processing

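With the replicate block, 2 H3K4me3 members were called in LM2 against Par in DESeq2 (14.4% of all peaks tested, beside 2.51% without the block). In edgeR 2 were also called (26.2% of all peaks, beside 1.61% without the block). In each fit with the block, 1 was higher and 1 lower. For H3K27ac, LM2 against Par gave 4 calls in edgeR (5.14% of all peaks) and 7 in edgeR with the replicate block (13.2%). With the compared lines only it gave 1 (2.98% of all peaks tested). BrM2 against Par gave 3 in DESeq2 with the replicate block (8.13% of all peaks tested), 3 in edgeR (6.88%) and 6 in edgeR with the replicate block (15.9%). It gave 1 with scaling by chromosome (4.82%) and 1 with a mean count of at least 10 (6.03%). BrM2 against LM2 gave 2 in edgeR with the replicate block (12.5% of all peaks). With gene-level starts, which the plan had named, 1 H3K4me3 member remained, MMP14. Under this rule 0 were called in LM2 against Par or BrM2 against LM2, counts added after the data were seen. The MMP2 peak is a member only by the starts of all protein-coding transcripts.

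Leaving out 1 library in turn gave 0 to 1 H3K4me3 calls in LM2 against Par and in BrM2 against LM2, with 0 without either LM2 library, and 0 to 1 H3K27ac calls in LM2 against Par. Independent filtering left the MMP8 site without an adjusted p in the fits without Par replicate 1 or LM2 replicate 1. Its log2 fold changes there were 3.87 and 4.76. The cause of the other lost calls was not tested, beyond the smaller number of libraries in these fits.

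Among the named peaks compared with Par, sign changes were limited to contrasts that no fit called. In BrM2 against Par they were MMP14 H3K4me3 (-0.228 to 0.00654 over left-out libraries), MMP2 H3K4me3 (-1.38 to 4.23), the MMP13 peak 14.9 kb downstream (-0.128 to 1.21), the MMP2 H3K27ac peak over the start (-0.562 to 0.316) and the MMP14 H3K27ac peak over the start (-0.109 to 0.10). That MMP14 peak was also at 0.00978 with the replicate block in DESeq2, 0.00557 with the replicate block in edgeR, 0.0559 with scaling by chromosome and 0.00446 with a mean count of at least 10. In LM2 against Par, the second MMP14 H3K27ac peak ran from -0.126 to 0.287. In DESeq2 the block changed no call of a member beyond those given beside the results. TMM scaling left every count of member calls within the limit of 1.5 times. Distances of 1 and 50 kb gave the same 2 H3K4me3 and 23 H3K27ac members, so they could not change these counts. Low counts limit the MMP12 peak, the MMP9 exon peak, the MMP13 peak 14.9 kb downstream and the MMP3 peaks 0.779 and 7.26 kb upstream. Of these, edgeR called the last MMP3 peak in LM2, and with the block the MMP12 peak too, while DESeq2 called none.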
